A study of Danio rerio with 18 samples.

Results

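Of 2188 zebrafish regions that carried a super-enhancer in at least 1 of 4 adult tissues, 223 carried super-enhancers of 3 tissues (166 regions) or of all 4 (57 regions). These 223 regions were chosen by their presence in the deposited super-enhancer lists of brain, testis, heart and intestine. Super-enhancers of the lists were pooled, those that overlapped by 1 bp or more were merged, and a merged region was kept when it held rows of at least 3 lists. Because the lists themselves chose the regions, the number of tissues and the overlaps that made them are a description and support no test.

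All fish were wild-type AB males. Brain and testis came from fish 10 months old (12 brains or 8 testes pooled in each replicate, chromatin sheared to 175 bp), and heart and intestine from fish 1 year old (20 hearts or 5 intestines pooled, 200 bp). A further heart list, from a single replicate of 20 hearts at 10 months sheared to 175 bp, played no part in choosing the regions. The measurement was chromatin immunoprecipitation with sequencing (ChIP-seq) of histone H3 acetylated at lysine 27 (H3K27ac), with input DNA sequenced beside it. Age, fragment size and preparation differed together between the 10-month and 1-year sets and cannot be told apart from tissue. Each tissue is a whole organ with many cell types, so a region shared by 3 tissues may be active in a cell type that these organs have in common or in different cells of each, which cannot be told apart. The lists hold no genes and no annotation of their build, Zv9, was used, so regions are given by position and the tissue labels were not checked against marker genes.

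H3K27ac is deposited by the acetyltransferases p300 and CBP at active enhancers and promoters. Super-enhancers are clusters of such enhancers within a short stretch of chromosome, joined and ranked by their summed signal, and in mammals they are known for lying near genes that define a cell type. A super-enhancer region that recurs in several organs is one where the joined clusters of different organs fall on the same stretch, which does not require that the same enhancers inside it are used.

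The testis was the tissue most often missing from regions of 3 tissues. Brain, heart and intestine without testis made up 87 regions (39.0% of the 223), and heart, intestine and testis without brain made up 60 (26.9%). Heart was missing from 14 regions (6.28%) and intestine from 5. Regions of all 4 tissues were the other 25.6%. Heart and intestine were thus both present in 204 of the 223 regions, and the testis in 136. The lists also differed in size, with 1145 super-enhancers for intestine, 850 for heart, 664 for brain and 581 for testis. With all lists cut to the size of the testis list, 153 regions had 3 or 4 tissues. Of these, 37 had all 4 tissues, 60 lacked testis, 35 lacked brain, 12 lacked heart and 9 lacked intestine. Most regions were simple: 189 of 223 held exactly 1 super-enhancer of each of their tissues.

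**Figure D1:**
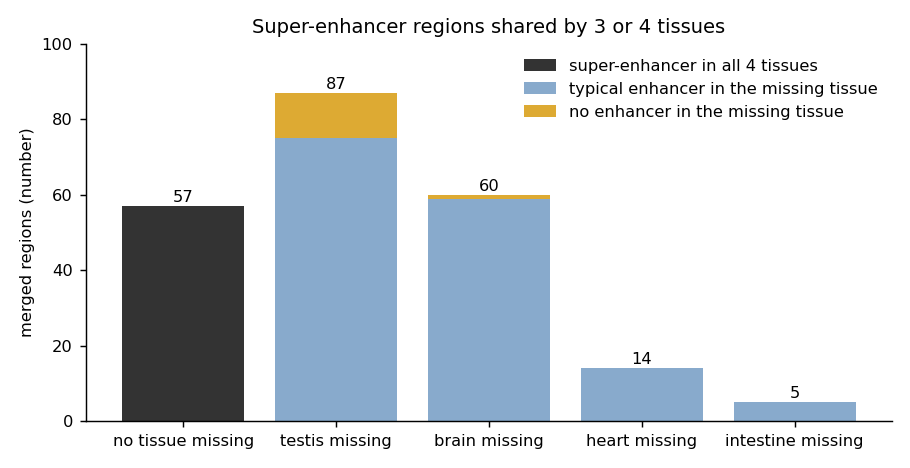
Number of merged regions (y axis) by missing tissue (x axis), split by what the missing tissue held there. The testis was missing from 87 regions, 12 of which held no testis enhancer of either kind, whereas the brain was missing from 60 and only 1 of those held no brain enhancer.

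In most regions of 3 tissues the missing tissue held a typical enhancer. Of the 166 regions of 3 tissues, 153 (92.2%, Clopper-Pearson 95% interval 87.0 to 95.8) overlapped a typical enhancer of the missing tissue by at least 1 bp. Typical enhancers are the regions that the authors listed under that name, and how they were set apart from super-enhancers is not given in the sources used here. The share was 98.3% (59 of 60, interval from 91.1) where the brain was missing, 100% where the heart was missing (14 of 14, from 76.8) or the intestine was missing (5 of 5, from 47.8), and 86.2% (75 of 87, 77.1 to 92.7) where the testis was missing. Over all merged regions without a super-enhancer of the tissue, which include these, the corresponding shares were 77.2% for the brain, 84.3% for the heart, 79.4% for the intestine and 70.3% for the testis. Many typical enhancers of the brain and testis lists carry a signal that does not match their own length. When only those with a matching signal were counted, a setting chosen after seeing the data, the share over the 166 regions was 59.6%. It was then 42 of 60 where the brain was missing (interval 56.8 to 81.2, against 47.7% over all merged regions) and 38 of 87 where the testis was missing (43.7%, 33.1 to 54.7, against 26.5%). The length of regions moved with these shares: regions without a testis super-enhancer had a median length of 56.6 kb when 1 tissue held them and 127 kb when 3 did, and the share with a typical testis enhancer was 64.3% for 1 tissue, 85.4% for 2 and 86.2% for 3. For the brain it went from 71.1% over 90.8% to 98.3%, with median lengths of 39.2, 79.3 and 87.7 kb. For the heart it was 83.0%, 97.3% (107 of 110) and 100%, with median lengths of 40.4, 59.0 and 92.4 kb. For the intestine it was 78.1%, 97.2% (69 of 71) and 100%, with 51.6, 114 and 86.0 kb. Where heart, intestine or testis was missing, regions of 2 tissues were thus close to those of 3.

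How much of a region the missing tissue covered depended on which tissue was missing. Typical testis enhancers covered a median of 6.30% of a region (quartiles 2.55 and 15.9%) and at most 45.4%. Typical brain enhancers covered 38.6% (8.59 and 52.2%), typical heart enhancers 52.4% (40.7 and 64.9%) and typical intestine enhancers 57.1% (33.3 and 72.6%). In regions of 2 tissues the corresponding medians were 6.20% for testis, 27.5% for brain, 57.7% for heart and 44.7% for intestine, so the testis value was near that of regions shared by fewer tissues and the heart value was below it. The testis list as a whole is short, with 48.4 Mb of typical enhancers in all, against 120 Mb for brain, 139 Mb for heart and 128 Mb for intestine. Within the base pairs common to the 3 present tissues the order was the same. Among regions with such base pairs, the missing tissue covered a median of 8.07% where it was the testis (80 regions), 65.1% for the brain (54), 87.6% for the heart (12) and 100% for the intestine (4).

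**Figure D2:**
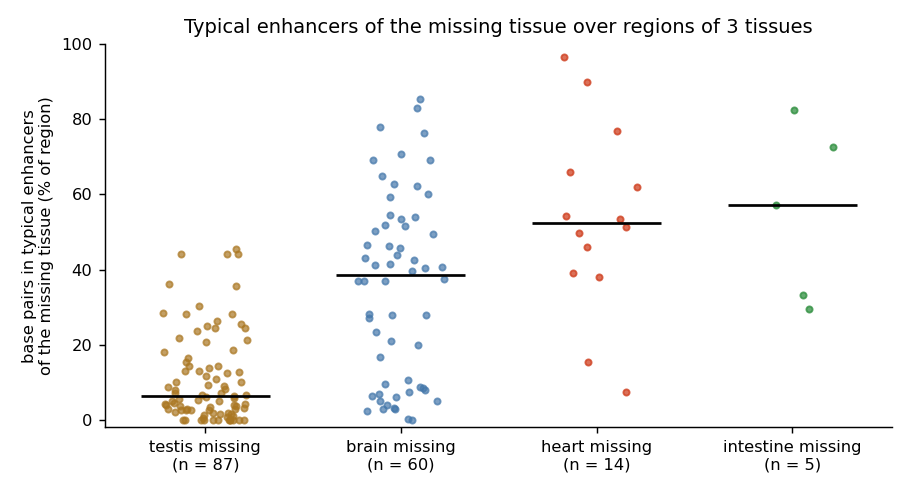
Share of each region of 3 tissues that lay in typical enhancers of its missing tissue (y axis, percent of base pairs), 1 point per region, with the median as a line. Points for the testis stay at or below 45.4% with a median of 6.30%, while the medians for brain, heart and intestine are 38.6%, 52.4% and 57.1%.

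Many missing tissues held a typical enhancer with as much signal as some of their own super-enhancers. A typical enhancer whose signal exceeded that of its list's lowest super-enhancer was found in 35 of 60 regions without brain, 6 of 14 without heart, 4 of 5 without intestine and 42 of 87 without testis. Over all merged regions without a super-enhancer of that tissue the shares were 29.8%, 28.9%, 23.6% and 31.6%. A typical enhancer counted with its whole signal wherever it overlapped the region by at least 1 bp. Regions of 3 tissues were longer than those of 1 tissue, as given above, and length was not matched here. The signal of the classes overlapped throughout the lists. Of all typical enhancers, 13.4% in the brain, 8.88% in the heart, 7.31% in the intestine and 25.4% in the testis exceeded the lowest super-enhancer, which is a single row of each list. All rows of the 1-year heart and intestine lists carry a signal that matches their length. In the brain and testis lists 61.3% and 73.5% of typical enhancers do not, and with only rows whose signal does match, the counts were 30 of 60 for the brain and 24 of 87 for the testis (27.6%, interval 18.5 to 38.2). The shares over all merged regions counted in the same way were 24.1% and 15.6%.

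Regions without intestine had the highest median cover by typical enhancers of the missing tissue, but there were only 5 of them. Their quartiles (33.3 and 72.6%) enclosed those of the 14 regions without heart (40.7 and 64.9%), and the highest single value, 96.5%, was in a region without heart. On chromosome 18 (18839601 to 18925599, 86.0 kb) the intestine had 2 typical enhancers that covered 72.6% of the region and all of the 30.8 kb common to brain, heart and testis, the longer of them 60.2 kb. On chromosome 12 (28794601 to 28877599, 83.0 kb) 2 typical intestine enhancers covered 82.4% of the region. The common stretches of this region and of that on chromosome 15 (30502201 to 30536199, 34.0 kb) were short, 9.80 and 11.2 kb, and both lay wholly in typical intestine enhancers. On chromosome 11 (26655401 to 26763599, 108 kb) the intestine covered 29.4%, the lowest of the 5.

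Some regions without heart held a super-enhancer in the other heart list. The heart at 10 months held a super-enhancer in 6 of these 14 regions (42.9%, interval 17.7 to 71.1), and a typical enhancer in the remaining 8. Over all merged regions that lacked a 1-year heart super-enhancer the share was 6.87%. It was 5.77% in those of 1 tissue and 14.5% (16 of 110) in those of 2 tissues. Length differed too, with medians of 40.4 and 59.0 kb in those groups and 92.4 kb in the 14 regions. The 6 included the shortest regions of the set, on chromosome 21 (26111801 to 26123199, 11.4 kb) and chromosome 14 (48565601 to 48577599, 12.0 kb), which the typical heart enhancers at 1 year covered to 96.5% and 90.0%. The regions without heart that had the most common base pairs did not follow this. On chromosome 5 (14884201 to 14979199) brain, intestine and testis shared 45.0 kb, and on chromosome 4 (16049401 to 16141199, 91.8 kb) 42.4 kb, and the heart held only typical enhancers there at both ages. The same was true on chromosome 7 (43851401 to 43955599, 104 kb), with 20.8 kb in common, whereas on chromosome 14 (31761001 to 31828399, 67.4 kb, 22.8 kb in common) the heart at 10 months held a super-enhancer over 24.6 kb.

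In most regions without brain the testis had the shortest super-enhancer. It was the tissue with the fewest base pairs in 55 of these 60 regions, and in 30 of those all its super-enhancer base pairs lay inside super-enhancers of both other tissues. Over the whole lists the median super-enhancer was 17.2 kb long in the testis, 75.5 kb in the heart and 52.2 kb in the intestine. On chromosome 11 (6537001 to 6674399, 137 kb) the heart super-enhancer of 137 kb and the intestine super-enhancer of 137 kb ran almost end to end, and a testis super-enhancer of 43.6 kb lay inside both. Typical brain enhancers covered 27.9% of this region but 9.17% of the common stretch. On chromosome 23 (32372801 to 32478799, 106 kb) the common stretch was the testis super-enhancer of 40.6 kb, and the brain had a single typical enhancer of 2.60 kb. On chromosome 14 (31649201 to 31747199, 98.0 kb) 38.0 kb were common and the brain covered 72.6% of them. On chromosome 18 (44247201 to 44346999, 99.8 kb) 37.4 kb were common, and the testis super-enhancer ranked 8 of 581 by signal in its list.

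Regions without testis were the longest and shared the most base pairs. Their median length was 127 kb and the median common stretch 50.2 kb, against 13.2 kb in regions without brain, 10.1 kb without heart and 9.80 kb without intestine. On chromosome 12 (9351601 to 9630399, 279 kb) brain, heart and intestine shared 154 kb, from 9418401 to 9572599. That region ranked 18 of 664 by signal in the brain, 4 of 850 in the heart and 13 of 1145 in the intestine. The testis had 3 typical enhancers there that covered 5.38% of it. On chromosome 7 (57443001 to 57675799, 233 kb) 154 kb were shared and the testis had a single typical enhancer, which covered 3.01% of the region and lay outside the common stretch. On chromosome 6 (11708601 to 11865399, 157 kb) the common 127 kb were 81.0% of the region, and on chromosome 7 (53866801 to 54168799, 302 kb) 125 kb were common.

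In 13 regions the missing tissue had no enhancer of either kind, and in 12 of them that tissue was the testis. The longest lay on chromosome 13 (50253801 to 50473199, 219 kb). It ranked 2 of 1145 by signal in the intestine, 25 of 850 in the heart and 349 of 664 in the brain, and 59.0 kb were common to these tissues. The next were on chromosome 19 (15268801 to 15426199, 157 kb, 47.6% of it common), chromosome 25 (23687401 to 23803599, 116 kb, 64.6 kb common), chromosome 7 (60761801 to 60866399, 105 kb, 37.4 kb common) and chromosome 17 (17753201 to 17852599, 99.4 kb, 65.2 kb common). In the single region without any brain enhancer, on chromosome 3 (16415801 to 16503999, 88.2 kb), heart, intestine and testis shared 31.4 kb. It is named because it is the only one of its kind.

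Regions merged over tissues need not have a stretch that all their tissues share, since rows of different lists can be chained. Base pairs common to all tissues of the region were present in 198 of the 223 (88.8%, interval 83.9 to 92.6), in 150 of 166 regions of 3 tissues and in 48 of 57 of 4. Over all merged regions of 2 to 4 tissues the share was 96.4%, which counts all 476 regions of 2 tissues, where the overlap that made the region is itself common. The common stretch was 1 unbroken piece in all but 16 of the 198. The median region had 22.9% of its length in common (interval 20.0 to 26.9), or 31.2% in regions of 3 tissues and 11.8% in regions of 4. In kilobases the medians were 25.4 in regions of 3 tissues and 11.0 in regions of 4. The values for 3 tissues pool unlike groups. The median was 50.2 kb without testis, but 13.2 kb without brain, 10.1 kb without heart and 9.80 kb without intestine. As shares of length, the groups that included testis had 18.2% without brain, 15.4% without heart and 11.8% without intestine. How far the presence of testis accounts for the difference between 3 and 4 tissues was not tested. Together the common stretches came to 5860 kb in regions of 3 tissues and 870 kb in regions of 4, out of 19.6 and 7.34 Mb of merged length.

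The testis was the shortest tissue in 118 of the 136 regions in which it took part. Testis super-enhancers were short throughout their list, with a median of 17.2 kb, and those of the shared regions had a median of 17.8 kb. The list medians were 67.0 kb for brain, 75.5 kb for heart and 52.2 kb for intestine, so the short testis is not particular to these regions. In regions of 4 tissues it had the fewest base pairs in 45 of 57, and its median was 18.4 kb, against 65.0 kb in the brain, 83.6 kb in the heart and 72.6 kb in the intestine. The testis covered a median of 16.6% of such a region, and the heart 79.6%, the brain 69.7% and the intestine 59.4%. The heart was the widest tissue in 26 of them, the brain in 18, the intestine in 10 and the testis in 3. In regions without testis the heart was widest in 41 of 87 and the brain was shortest in 48. Pairs of tissues differed accordingly inside the regions. Heart and intestine shared a median of 72.9% of the base pairs that either covered (204 regions with both), brain and heart 63.3% (149), brain and intestine 56.1% (158), and the testis 23.0% with the intestine (131), 19.5% with the brain (76) and 18.9% with the heart (122). Heart and intestine overlapped in every one of these regions that held both, and intestine and testis failed to overlap in 11 of 131. Pairs of tissues were not compared over the other merged regions. The shares and counts for pairs therefore have no background and describe the shared regions only.

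Edges of the super-enhancers coincided between at least 2 tissues in 76 of the 223 regions, at the start, the end or both. The lists have a grid of 200 bp, and the first start of at least 2 tissues fell on the same grid position in 46 of 223 regions and the last end in 38. At least 3 tissues had the same start in 0 regions and the same end in 6. In 0 regions did all tissues share both edges. Edges were not counted over regions of 2 tissues, so these counts have no background and describe the 223 regions only. A region with more tissues also has more pairs whose edges can coincide.

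**Figure D3:**
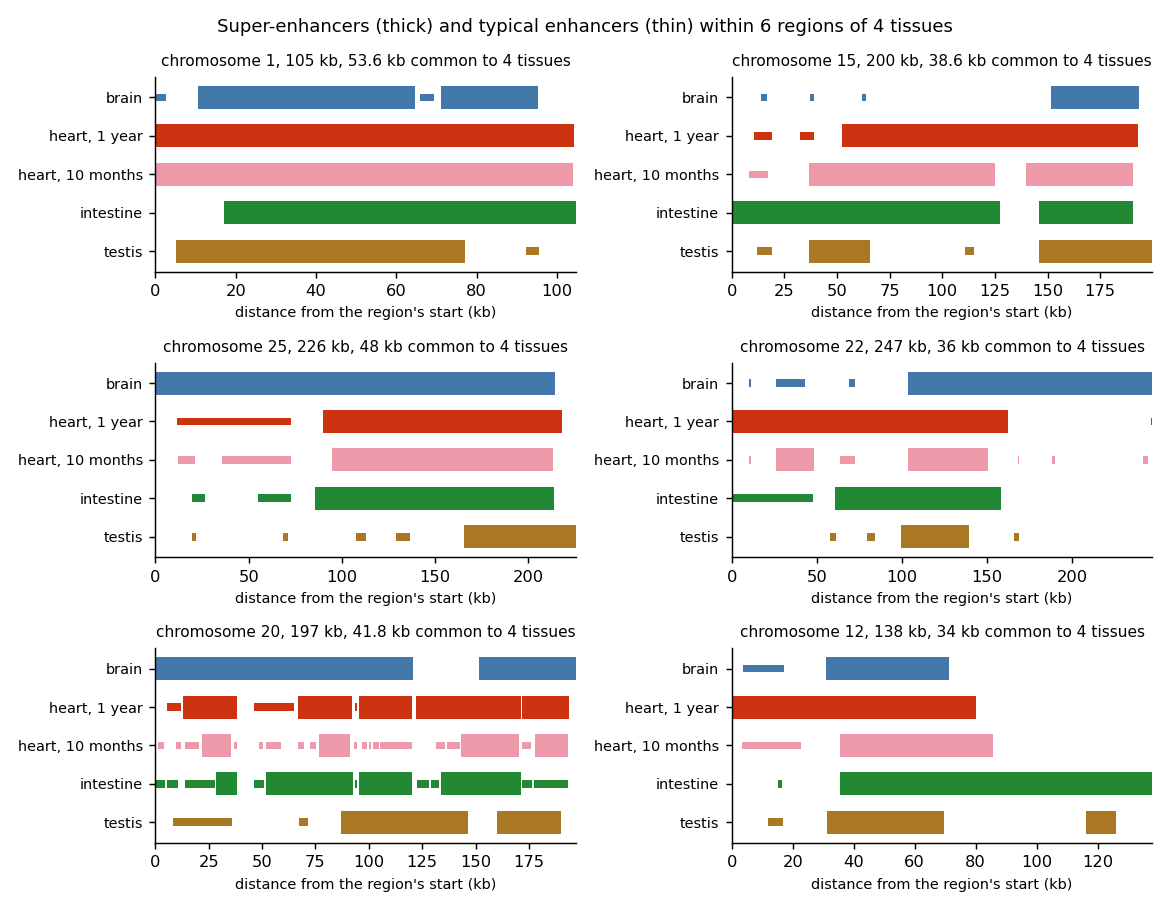
Super-enhancers (thick bars) and typical enhancers (thin bars) of 5 lists within the 6 regions of 4 tissues that had the most base pairs in common, against the distance from the region's start in kb. The testis bar is short beside the others in the regions on chromosomes 25 and 22. The region on chromosome 20 is broken into 13 super-enhancers of the 4 lists that chose the regions, beside 4 of the heart at 10 months.

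The region of 4 tissues with the most common base pairs lay on chromosome 1, from 46026001 to 46130799 (105 kb). The 53.6 kb common to all 4 were in 2 pieces between 46043001 and 46102999. The heart super-enhancer spanned 104 kb, that of the intestine 87.8 kb and that of the testis 71.8 kb, while the brain had 2 unjoined loci of 54.0 and 24.4 kb. It ranked 2 of 581 by signal in the testis, 40 of 1145 in the intestine, 80 of 850 in the heart and 204 of 664 in the brain. Its neighbour on the same chromosome, 46173801 to 46285799 (112 kb), began 43.0 kb further on, was also a super-enhancer in all 4 tissues and had 31.2 kb in common, equal to the whole testis super-enhancer.

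The region on chromosome 25 from 35523001 to 35748799 (226 kb) had the best mean percentile by signal of all regions of 4 tissues, 98.5. Its brain rank was 9, its testis rank 12, its heart rank 22 and its intestine rank 5. The brain super-enhancer covered 214 kb and those of heart and intestine 128 kb each, and the 48.0 kb common to all ran from 35688801 to 35736799. The next by mean percentile were chromosome 22 (18842801 to 19089999), with ranks of 27 in the brain, 54 in the heart, 61 in the intestine and 63 in the testis and 36.0 kb in common, and chromosome 1 (40724001 to 40966399), which ranked 2 in the brain and 6 in the heart but 139 in the testis, with 28.6 kb in common. Chromosome 4 (7234401 to 7492599) followed with no common base pair at all. Its testis super-enhancer, a single locus of 12.8 kb, ranked 3 of 422 by signal per bp.

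The third largest common stretch was on chromosome 20 (32181801 to 32378999, 197 kb), the most fragmented of the 223. It held 13 super-enhancers, of which the heart contributed 5 and the intestine 4, all of them single loci that were not joined to others. Its 41.8 kb in common were in 3 pieces. Of the 12 regions of 4 tissues with the most common base pairs, a further 5 had 28.8 to 38.6 kb in common. They lay on chromosome 15 (27557601 to 27757399, common stretch 27709401 to 27747999), chromosome 12 (23848601 to 23986599, common stretch 23884201 to 23918199), chromosome 8 (19366401 to 19444599, common stretch 19407401 to 19438399), chromosome 2 (21519601 to 21631599, 31.0 kb in 2 pieces) and chromosome 15 (19803601 to 19920399, common stretch 19844201 to 19872999).

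A pair of compact regions differed from these. On chromosome 18 (39526201 to 39576599, 50.4 kb) the super-enhancers of intestine, brain and heart were 35.6, 34.4 and 32.8 kb long, the whole heart super-enhancer lay inside the other three, and the testis had the longest, 48.6 kb. It ranked 26 of 581 in the testis but 545 of 1145, 558 of 664 and 748 of 850 in the others. On chromosome 4 (21372601 to 21419199, 46.6 kb) 66.1% of the region was common, from 21386001 to 21416799. Its signal per bp was 2.53 units in the intestine (rank 13 of 1145), 1.07 in the heart (rank 7 of 850) and 0.794 in the brain (rank 32 of 631). The deposited testis signal of this region does not match its length, so no value per bp is given there.

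By total signal, the shared super-enhancers ranged from near the top to near the bottom of each list. In the intestine and heart lists their medians lay above the middle of the list. They were 26.4% of brain, 26.1% of heart, 20.9% of intestine and 24.8% of testis super-enhancers. Their median percentile by signal, with 100 as the highest of the list, was 72.3 in the intestine (interval 65.2 to 76.5, n = 239 super-enhancers), 60.7 in the heart (53.5 to 68.3, n = 222), 51.1 in the brain (44.4 to 62.0, n = 175) and 50.5 in the testis (40.4 to 64.5, n = 144). This signal is a total, so it also depends on length. By length, the shared super-enhancers stood at a median percentile of 63.0 in the intestine (56.9 to 70.4) and 51.9 in the heart (47.4 to 62.5). They stood at 45.9 in the brain and 51.9 in the testis. All ranks by total signal include super-enhancers whose signal does not match their length. In the testis 111 of the 144 had a matching signal, and their median was 65.0, outside that interval. In the brain 168 of the 175 did, with a median of 52.7. The 50 super-enhancers with the highest signal included 28 shared ones in the intestine, 25 in the heart, 17 in the brain and 16 in the testis. At the other end they reached rank 850 of 850 in the heart and 663 of 664 in the brain. The highest heart super-enhancer, on chromosome 13 (25058001 to 25413599, 356 kb), was a region of heart, intestine and testis in which 31.4 kb were common.

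By signal per base pair the regions of 4 tissues stood high in 3 lists. In the heart, the median percentile went from 29.6 in regions of 1 tissue (interval 24.6 to 35.1, n = 259 super-enhancers) over 49.9 for 2 tissues and 62.4 for 3 (53.6 to 67.8, n = 156) to 81.4 for 4 (77.4 to 89.6, n = 66). In the brain the values were 43.0, 45.4, 59.0 and 77.3 (70.7 to 83.0 for 4 tissues, n = 63). In the intestine regions of 4 tissues stood at 70.9 (64.4 to 81.9, n = 69) and those of 1, 2 and 3 tissues at 51.5, 43.1 and 51.9. The testis showed no such order, with 48.3, 48.2, 61.0 and 48.0 (34.0 to 72.2 for 4 tissues, n = 49). In regions of 3 tissues the value varied with the tissues present. In the heart list it was 53.5 for brain, heart and intestine, near the 53.8 of heart and intestine alone. It was 69.1 there for heart, intestine and testis. In the intestine list the same 3 groups stood at 44.8, 41.2 and 57.6. In the brain list, brain, heart and intestine stood at 55.4, brain and heart at 38.7, and brain and intestine at 53.0. Brain, intestine and testis stood at 70.4 there (n = 14), brain, heart and testis at 64.7 (n = 5), and brain and testis at 42.2 (n = 13). In the intestine list, intestine and testis alone stood at 61.9 (n = 68), above each group of 3 tissues. Brain, intestine and testis stood at 44.8 there. In the heart list, heart and testis stood at 49.2, and brain, heart and testis at 51.1. As levels, the heart medians were 0.438 signal units per bp for 1 tissue and 0.580 for 4, the brain medians 0.463 and 0.563, and the intestine medians 0.660 and 0.808. Length did not follow the same order, since heart super-enhancers in regions of 4 tissues stood at a median percentile of 47.4 by length and those of the brain at 41.2. Ranked among super-enhancers of like length, in 3 classes of equal number, those of 4 tissues stood at 85.9 in the heart, 78.1 in the brain, 82.3 in the intestine and 59.8 in the testis. All 4 lists helped to choose the regions, so these differences were not tested, and several super-enhancers of 1 region are not independent.

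The heart list at 10 months, which did not choose the regions, gave the same order. It is of the same organ as the 1-year heart list, which did help to choose them, so it is no independent check. It had a super-enhancer in 61.3% of merged regions with a 1-year heart super-enhancer and in 6.87% of those without. The ranks were not split in this way. Super-enhancers of the heart at 10 months stood at a median percentile by signal per bp of 40.7 where they overlapped regions of 1 tissue (32.3 to 45.3, n = 141), 48.5 for 2, 61.8 for 3 (49.8 to 69.1, n = 119) and 76.0 for 4 (68.9 to 82.9, n = 58). Within classes of like length the value for 4 tissues was 80.9. These ranks cover only super-enhancers whose signal matches their length, 593 of 749. With 1 list and no value per replicate, the order could not be tested over fish.

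**Figure D4:**
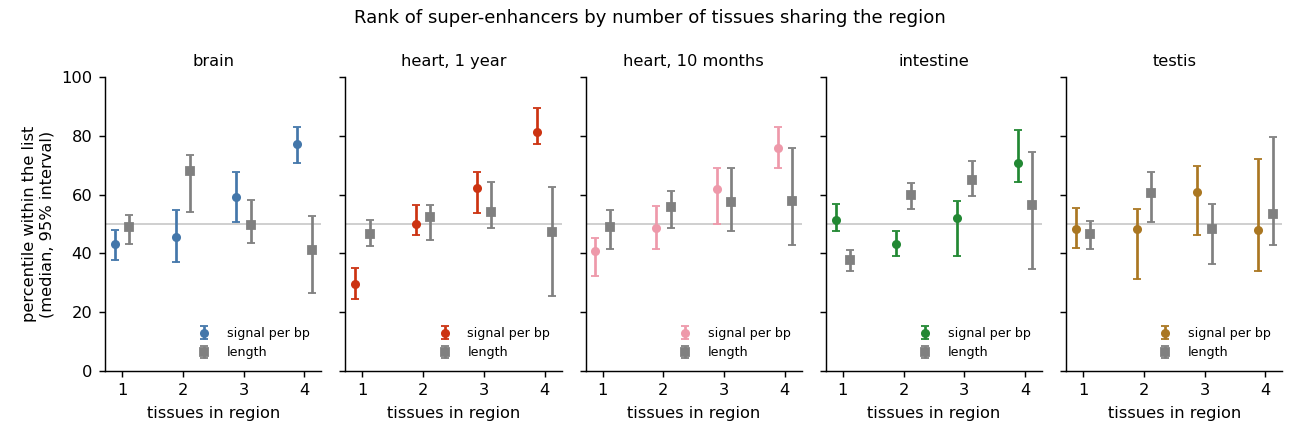
Median percentile of super-enhancers within each list (y axis, 100 is the highest) by the number of tissues that share their region (x axis), for signal per bp (coloured circles) and length (grey squares), with exact 95% intervals over super-enhancers. In the heart at 1 year the circles go from 29.6 to 81.4 and in the testis they stay between 48.0 and 61.0.

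The region with the best mean percentile by signal per bp, among 46 regions of 4 tissues that had a usable value in every list, lay on chromosome 17 (23759001 to 23818599, 59.6 kb). It held 1.46 units per bp in the intestine (rank 76), 0.704 in the heart (rank 62), 0.628 in the brain (rank 97) and 0.539 in the testis (rank 41 of 422), although its ranks by total signal were only 168 to 630. It was followed by chromosome 7 (34612601 to 34730399, 118 kb), where the brain reached 1.34 units per bp, rank 3 of 631. Behind the regions on chromosomes 1 (46026001 to 46130799) and 4 (7234401 to 7492599) came chromosome 16 (12844801 to 12908399, 63.6 kb), with 2.03 units per bp in the intestine and a testis super-enhancer of 8.00 kb that lay inside the others.

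Most regions of 3 or 4 tissues were super-enhancers of the heart at 10 months as well. That list had one in 166 of 223 regions (74.4%, interval 68.2 to 80.0), against 27.6% of all merged regions. The share was 12.8% for regions of 1 tissue, 52.1% for 2, 71.1% for 3 (63.6 to 77.9) and 84.2% for 4 (72.1 to 92.5). Since heart at 1 year is among the 4 tissues, the closer comparison is within regions that hold a super-enhancer of that heart. There the share was 45.9% when no other tissue was present (39.8 to 52.2, n = 259), 63.4% with 1 other tissue (58.2 to 68.3, n = 366), 73.7% with 2 (65.9 to 80.5, n = 152) and 84.2% with all (n = 57), and 61.3% over all of them. Median lengths in these 4 groups were 72.8, 88.1, 103 and 110 kb. Among such regions of 50 to 100 kb the shares were 42.5%, 63.7%, 67.9% and 84.2% (16 of 19), and among those of 100 to 200 kb 54.7%, 64.7%, 76.7% and 87.0% (20 of 23). The share also varied with which tissues were present. With 1 other tissue it was 82.6% for heart and testis (19 of 23), 63.8% for heart and intestine and 47.1% for brain and heart. With 2 others it was 73.6% for brain, heart and intestine, 73.3% for heart, intestine and testis and 80% for brain, heart and testis (4 of 5). Heart and testis alone were thus near the value of all 4 tissues. The heart at 10 months had no enhancer of either kind in 0 of the 223 regions, in 2 of 476 regions of 2 tissues and in 230 of 1489 regions of 1 tissue, so that regions of 2 tissues were close to those of 3 or 4 in this respect. Of the common base pairs, super-enhancers of that list held 63.3% in regions of 3 tissues and 77.8% in regions of 4, and they held all of them in 77 of 198 regions. Those were 47 of 150 regions of 3 tissues and 30 of 48 of 4. Common stretches were shorter in regions of 4 tissues than of 3 (median 11.0 kb against 25.4 kb). These medians are over all 57 and 166 regions, and those without common base pairs count as 0. No such shares are given for regions of 2 tissues, so these values have no background.

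The regions lay on all 25 chromosomes, between 3 on chromosome 9 and 16 on chromosome 7. Chromosome 7 thus held 7.17% of them (interval 4.16 to 11.4), and 6.54% of all merged regions. Chromosomes 3 and 5 followed with 15 each, and chromosome 18 with 13. Among the merged regions of a chromosome, the share that reached 3 or 4 tissues was highest on chromosome 15 (12 of 73, 16.4%) and chromosome 18 (13 of 87, 14.9%), and lowest on chromosome 9 (3 of 85, 3.53%) and chromosome 21 (4 of 82, 4.88%). Over all chromosomes it was 223 of 2188. Per 10 Mb, taking the highest end in any list as the chromosome's length, there were 2.61 on chromosome 18, 2.53 on chromosome 15 and 0.515 on chromosome 9, with 1.64 over all. Regions of all 4 tissues were most numerous on chromosomes 6 and 22, with 5 each, and there were 0 on chromosomes 9, 10, 13 and 24. Chromosome 7 held 9 of the 87 regions without testis and chromosome 3 held 6 of the 60 without brain. These chromosomes also held 143 and 122 of all merged regions, and chromosomes 2, 5, 12 and 18 held 5 each without brain. With 3 to 16 regions per chromosome, no chromosome was tested against another.

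**Figure D5:**
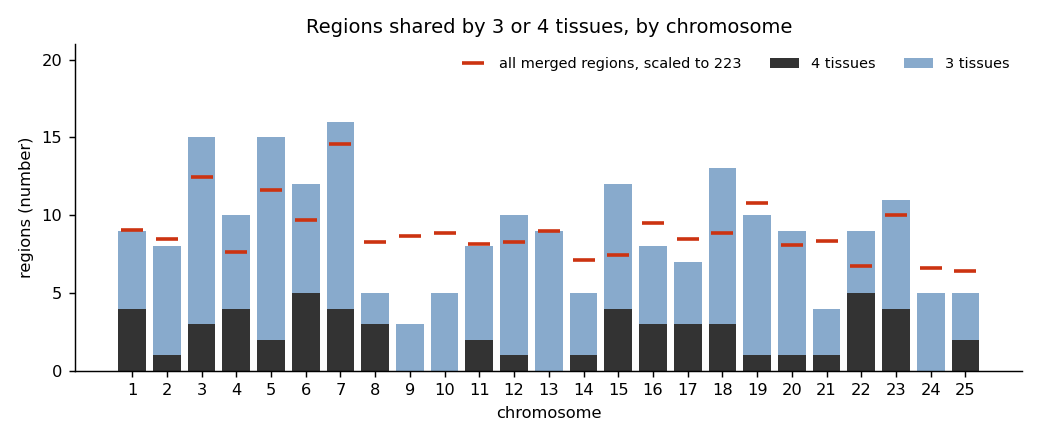
Number of regions of 4 tissues (dark) and of 3 tissues (light) on each chromosome, with all 2188 merged regions scaled to 223 as red marks. Chromosomes 15 and 18 lie above their mark, with 12 and 13 regions, and chromosome 9 lies below it with 3.

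Neighbouring regions on a chromosome were a median of 2926.5 kb apart, and 10 of 198 neighbouring pairs lay less than 100 kb apart. No such median or count is given for all merged regions, so these values have no background. Whether the shared regions lie closer together than other super-enhancer regions was not tested, and the close neighbours named here are a description only. On chromosome 19 a region of 4 tissues (36623001 to 36903199) was followed within 17.2 kb by one without testis (36920401 to 36968199), and that within 18.6 kb by one without brain (36986801 to 37083799). On chromosome 14 the regions without brain and without heart named above lay 13.8 kb apart.

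Few regions owed their place to a small overlap. The overlap at which a region first joined 3 tissues had a median of 33.8 kb and was under 5 kb in 4 regions and under 1 kb in 0. The smallest was 1799 bp, on chromosome 9 (56202801 to 56271599), followed by 1999 bp on chromosome 3 (28643401 to 28831399), 3399 bp on chromosome 12 (20321201 to 20384399), 4799 bp on chromosome 13 (3522401 to 3549599) and 5199 bp on chromosome 1 (25623401 to 25638599). Just outside, regions on chromosome 7 (36079801 to 36237199, heart and testis, and 36238201 to 36268199, intestine) missed each other by 1001 bp. The next gaps were 1401 bp on chromosome 18 at 22064399, 2001 bp on chromosome 20 at 23236199, 3001 bp on chromosome 9 at 23003599 and 3201 bp on chromosome 22 at 18535799. The longest regions without a common base pair, after the one on chromosome 4, were on chromosome 12 (27164001 to 27398599, 235 kb), chromosome 5 (32675601 to 32906999, 231 kb), chromosome 22 (17055401 to 17277599, 222 kb) and chromosome 18 (17440801 to 17651599, 211 kb).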

How the data were processed

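Per the labels, 9 H3K27ac and 9 input libraries were made from brain, testis and heart at 10 months and heart and intestine at 1 year, and the authors deposited 10 lists with a signal for each region, 1 super-enhancer and 1 typical-enhancer list per set. Build Zv9 and the tools SICER 1.1, Bowtie2 2.1.0, bedtools 2.24.0, CASAVA and SAMtools 0.1.8 appear in the submitters' processing notes, without roles. Not given in the sources used here: how regions were joined, the threshold, the use of input and the combination of replicates. The signal is a total over the region, and no scaling between lists is stated, so it was ranked only within a list. Replicates have no values of their own and depth is unknown, so every interval covers regions, not fish, and no test was run.

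Positions are 1-based. Rows were merged over brain, testis, heart at 1 year and intestine at 1 bp of overlap, and the merge gave as many regions as bedtools 2.31.1. Signal per bp was used only for rows whose signal times 10000 is a whole multiple of the length, with no tolerance. Where a tissue had several rows in a region, ranks are those of its best row. Medians carry exact order-statistic 95% intervals, and shares carry Clopper-Pearson ones. Regions named are those with the most common base pairs (12 of 4 tissues, 4 per missing tissue), the best mean ranks, the longest without common base pairs or without an enhancer, and those at the edge of the rule (5 each), apart from those said to be chosen otherwise. Shortest and longest regions, the top heart region and close neighbours were chosen after their values were seen. The regions and choices were made with earlier results of these data known. The merging steps were tested on simulated data. Calculations used Python 3.11.15, numpy 2.4.6, pandas 2.3.3, scipy 1.17.1 and matplotlib 3.10.9.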

Additional observations from a re-analysis of the deposited data

How the results depend on the processing

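Of 166 values under 20 alternative settings, 145 stayed within 1.5 times the reported count or within the reported interval. That count includes settings that could change little. Merging at an overlap of at least 1000 bp gave the reported values exactly, and the smallest overlap that joined 3 tissues was 1799 bp. The setting with the most effect was a stricter threshold. With the upper 50% of each list by signal, 81 regions had 3 or 4 tissues and 10 had all 4, 44 lacked testis, 22 brain, 4 heart and 1 intestine. The median common share was then 31.7%, the median percentile by signal 64.6 in the brain and 68.1 in the testis, that by signal per bp 72.1 in the brain, 77.8 in the heart and 43.8 in the testis, and the fullest chromosome held 12.3% of the regions. With lists cut to the size of the shortest, 37 regions had all 4 tissues, 35 lacked brain and 9 lacked intestine. The same setting left 153 regions of 3 or 4 tissues in place of 223, and 60 in place of 87 without testis. Both count as within 1.5 times, so that range is wide. A typical enhancer of the missing tissue lay in the common base pairs of 71.1% of all regions of 3 tissues, counting those without common base pairs as having none. It was found in 59.6% when only typical enhancers with their own signal counted, a setting chosen after seeing the data that removes most typical enhancers of the 10-month lists. Also joining super-enhancers across gaps up to the default stitching distance of the program ROSE left common base pairs in 82.7% of regions. Ranking within classes of like length, also chosen after seeing the data, put the intestine at 68.1 by signal per bp, and super-enhancers with their own signal put the testis at 65.0 by signal. The causes were not tested. With the heart at 10 months in place of 1 year, no count or share that could be computed left its range. Leaving out replicates was not possible, because the lists hold no replicate values. No paired analysis was possible because the lists have no replicate columns and no test was run. Depth is unknown, so no limit from sequencing depth can be given.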
